A study of Mus musculus with 18 samples.

Results

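MHC class I molecules present peptides from inside a cell to cytotoxic T cells. The genes described here are the class I heavy chains *H2-K1* and *H2-D1*, which are the classical chains, the chains *H2-Q2*, *H2-Q4*, *H2-Q6* and *H2-Q7* of the Q region and *H2-T23* of the T region, together with *B2m* for the light chain, *Tap1* for a subunit of the peptide transporter of the endoplasmic reticulum, and *Nlrc5*, a transactivator of class I genes. They are 10 named genes of the 78239 in the count tables, and all 10 passed the filter on low counts in both experiments. They were chosen on the changes they showed between nsHif1a and eGFP libraries, together with the names of their family, so their values in those comparisons are a description and carry no test. *H2-Q2* is set against its paralogs.

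A class I heavy chain reaches the cell surface only with the light chain and a peptide, which the transporter carries into the endoplasmic reticulum. Neurons and photoreceptors carry little class I in a healthy retina, whereas microglia, endothelium and infiltrating leukocytes carry more. Interferons raise the whole pathway through factors such as IRF1 and NLRC5, and NLRC5 acts on the conserved promoter boxes that class I genes, *B2m* and *Tap1* share.

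Retinal mRNA was sequenced at 3 weeks after subretinal injection from 5 mice given AAV::*nsHif1a* and 5 given AAV::eGFP at postnatal days 29 to 32, and mRNA of the 661W cell line was sequenced 20 h after transfection with CMV-*nsHif1a* or CMV-eGFP plasmids, with 4 libraries per group. The product nsHIF1A is a form of the hypoxia-inducible factor subunit HIF1A that is stable at normal oxygen. In the retina the mouse opsin promoter restricts both transgenes to rods, and the vector reaches a part of the retina, so each library mixes transduced and untransduced cells. The labels name the mice C57BL/6J and the study's methods name another inbred background, and class I haplotypes differ between inbred backgrounds, which can change where class I reads align. In these bulk libraries, fewer cells of a type and less RNA per cell cannot be told apart.

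The libraries held 12898220 to 17809585 counts. *Hif1a* was at 641 to 728 CPM (counts relative to the library total, after TMM scaling) with AAV::*nsHif1a* and at 636 to 697 CPM with AAV::eGFP, so its level did not separate the retinal groups, while in 661W cells it was at 1219 to 1950 CPM against 150 to 164 CPM. Counts of *Xist*, the RNA of X inactivation, numbered 19492 to 28595 in AAV::eGFP libraries 1 and 2 and in the whole AAV::*nsHif1a* group, and 1 to 3 counts in AAV::eGFP libraries 3 to 5, so that in the controls the *Xist* class differed within the group. The cone marker *Arr3*, an arrestin, was at 0.06 CPM or less in all 661W libraries, against 102 to 189 CPM in the retina, so these cells lacked a defining marker of cones.

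The promoters of the class I genes are shown because that of *H2-Q2* differed in its letters from those of *H2-Q4*, *H2-D1* and *H2-K1*, printed beside it. Whether these letters bear on the values of *H2-Q2* was not tested. The windows run from 250 bases before to 50 bases from the RefSeq start (RefSeq, GRCm38.p6) and were located in GRCm39 by exact match. Those of *H2-Q6* and *H2-Q7* had no single exact match and were searched for patterns without a position. Capitals mark matches, on either strand, to a HIF site (ACGTG or GCGTG), the class I interferon response core TTTCACTT, the interferon-stimulated response element GAAANNGAAA, the NF-kB part of the class I enhancer GGGGATT, the X2 box core TGACG and the Y box CCAAT. TTTCACTT was added to the search after the windows had been read. *H2-Q2* is at chr17:35561033-35561332 on the plus strand, *H2-Q4* at chr17:35598343-35598642 on the plus strand, *H2-D1* at chr17:35481820-35482119 on the plus strand and *H2-K1* at chr17:34219272-34219571 on the minus strand.
H2-Q2: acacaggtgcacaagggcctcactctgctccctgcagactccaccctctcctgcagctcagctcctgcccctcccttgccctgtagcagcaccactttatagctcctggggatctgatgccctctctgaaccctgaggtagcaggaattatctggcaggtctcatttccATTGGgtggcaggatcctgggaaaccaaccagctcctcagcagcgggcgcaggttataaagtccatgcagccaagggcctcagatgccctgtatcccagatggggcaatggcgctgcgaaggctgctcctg
H2-Q4: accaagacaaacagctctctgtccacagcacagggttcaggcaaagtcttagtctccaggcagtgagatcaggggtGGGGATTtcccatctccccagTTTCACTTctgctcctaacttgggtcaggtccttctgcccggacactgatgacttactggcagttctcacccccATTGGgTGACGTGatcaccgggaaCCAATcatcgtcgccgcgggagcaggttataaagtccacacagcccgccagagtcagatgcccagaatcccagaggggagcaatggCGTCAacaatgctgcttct
H2-D1: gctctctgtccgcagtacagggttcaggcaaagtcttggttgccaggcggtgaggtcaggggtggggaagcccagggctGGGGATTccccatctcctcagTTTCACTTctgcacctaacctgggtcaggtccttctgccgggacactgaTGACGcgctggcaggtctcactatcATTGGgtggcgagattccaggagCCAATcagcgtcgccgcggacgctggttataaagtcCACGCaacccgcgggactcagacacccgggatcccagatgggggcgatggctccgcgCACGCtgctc
H2-K1: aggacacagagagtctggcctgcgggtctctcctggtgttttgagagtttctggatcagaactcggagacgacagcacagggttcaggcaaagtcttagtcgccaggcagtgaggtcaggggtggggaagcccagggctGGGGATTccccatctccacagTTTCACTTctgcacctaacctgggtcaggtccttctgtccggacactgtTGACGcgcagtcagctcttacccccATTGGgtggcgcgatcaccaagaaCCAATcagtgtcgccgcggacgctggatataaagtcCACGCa

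A window was listed for 9 of the 10 genes, all except *Nlrc5*. The interferon response core and the NF-kB part were each in the windows of 5 of the 7 heavy chains, *H2-K1*, *H2-D1*, *H2-Q4*, *H2-Q6* and *H2-Q7*, against 1.6% and 3.1% of all 32851 windows. The same 5 heavy chains held a HIF site, which 43.8% of all windows hold. The X2 core was in 4 heavy chains and in *B2m* and *Tap1* (20.8% of all windows), and where it reads TGACGTG, as in *H2-Q4* and *H2-Q7*, it overlaps a match to the HIF site. *H2-T23* and *B2m* held the longer interferon-stimulated element (3.44% of all windows), and all 9 held a Y box (37.4%). The window of *H2-Q2* held a Y box 81 bases before its start and no other of the 6 patterns. *H2-T23*, whose retinal values followed the other paralogs, also lacked the HIF site, TTTCACTT, GGGGATT and TGACG. Among other class I genes of the region, the windows of *H2-M10.2*, *H2-M10.6* and *H2-M11* also held only a Y box. A match describes letters and is not a site. GENCODE places the start of *H2-Q2* upstream of the RefSeq start, and does the same for other genes here, among them *H2-D1*, *H2-T23*, *B2m* and *Tap1*.

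Reads of such paralogs can be shared. Of the 50-base words in the transcripts of *H2-Q2*, 12.2% occurred in some other gene, most of them in *H2-Q1* (9.76%), its neighbour. The shares were 26.9% for *H2-Q4*, 30% for *H2-Q6*, 24.6% for *H2-Q7*, 13.1% for *H2-T23*, 12.6% for *H2-D1* and 11.3% for *H2-K1*. *B2m* and *Nlrc5* shared none and *Tap1* 0.374%. The levels of *H2-Q4*, *H2-Q6* and *H2-Q7* are therefore the least certain of the 10 as separate genes.

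In the retina, the classical chains were low in AAV::eGFP libraries 3 to 5 and high in the other 7. *H2-K1* was at 229, 851, 29.7, 17 and 31.2 CPM in AAV::eGFP libraries 1 to 5 and at 114, 279, 153, 296 and 345 CPM in AAV::*nsHif1a* libraries 1 to 5. *H2-D1* was at 214, 694, 57.4, 43.2 and 56 CPM with AAV::eGFP and at 117, 273, 176, 279 and 316 CPM with AAV::*nsHif1a*. For both genes AAV::eGFP library 2 was the highest of all 10, library 1 lay within the range of the AAV::*nsHif1a* group and libraries 3 to 5 lay below every AAV::*nsHif1a* library. The group means differed little, with 232 ± 357 CPM for *H2-K1* with AAV::eGFP and 237 ± 99 CPM with AAV::*nsHif1a* (SD, n = 5 each). The log2 fold change (log2FC), fitted on a log scale with library weights, was 1.63 ± 0.82 (SE) for *H2-K1* and 1.06 ± 0.60 for *H2-D1*.

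The Q and T region chains followed the same pattern over a wider range. *H2-Q6* was at 49.9, 324, 3.21, 2.57 and 2.03 CPM with AAV::eGFP and at 22.1, 82.4, 44.4, 75.2 and 85.8 CPM with AAV::*nsHif1a* (log2FC 2.51 ± 1.0). *H2-Q4* ranged from 2.96 to 215 CPM with AAV::eGFP and from 22.5 to 106 CPM with AAV::*nsHif1a* (log2FC 1.72 ± 0.83). *H2-Q7* ranged from 2.04 to 188 CPM and from 11.9 to 53.9 CPM (log2FC 2.17 ± 0.92). *H2-T23*, a nonclassical chain that serves as a ligand of inhibitory receptors of natural killer cells, ranged from 1.73 to 51.3 CPM and from 6.43 to 44.4 CPM (log2FC 1.56 ± 0.81). The groups overlapped for all 4, and AAV::eGFP library 2 again held the highest value of each.

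The light chain and the loading genes varied with the heavy chains. *B2m* was at 215, 473, 25, 12.1 and 19.2 CPM with AAV::eGFP and at 70.9, 157, 98.2, 164 and 255 CPM with AAV::*nsHif1a* (log2FC 1.42 ± 0.80). *Tap1* was at 20.5, 87.3, 4.32, 2.96 and 2.25 CPM with AAV::eGFP and at 7.63, 20.6, 15.1, 26.6 and 56.3 CPM with AAV::*nsHif1a* (log2FC 1.38 ± 0.79). *Nlrc5* was at 9.0, 54.9, 2.22, 2.44 and 1.58 CPM with AAV::eGFP and at 8.23, 16.1, 16.8, 22 and 46.5 CPM with AAV::*nsHif1a* (log2FC 1.93 ± 0.72). The groups overlapped for all 3, through AAV::eGFP libraries 1 and 2. Over the 10 retinal libraries the log2 CPM of *H2-K1* correlated with that of the other members, *H2-Q2* left aside, at Pearson r between 0.945 and 0.995, as a description of libraries that share a tissue and 2 conditions.

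**Figure D1:**
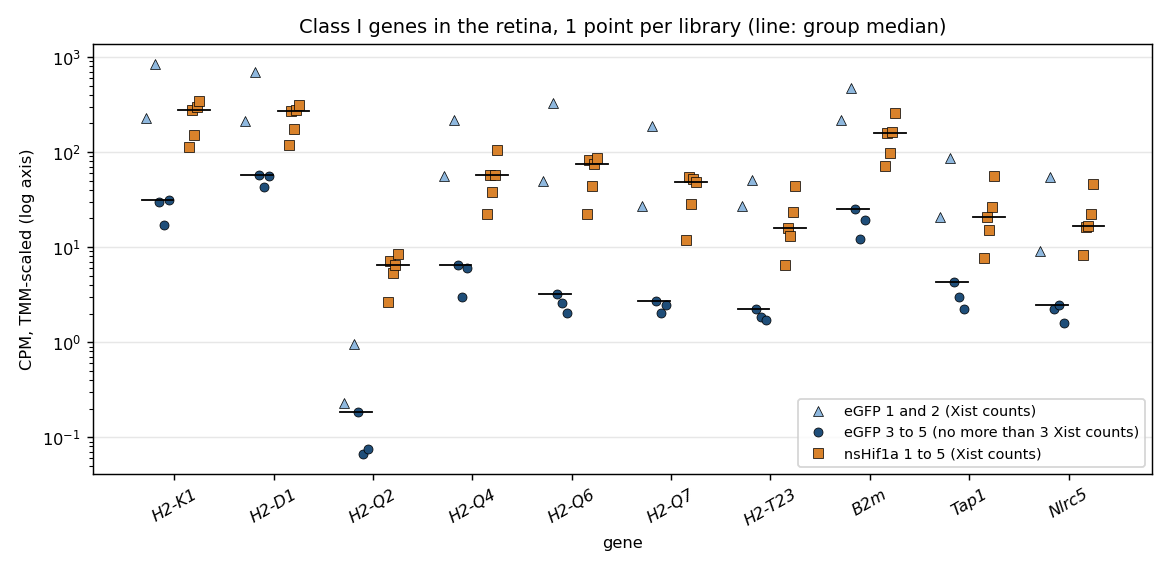
CPM (log axis) of the 10 genes in the 10 retinal libraries, 1 point per library, with triangles for AAV::eGFP libraries 1 and 2, circles for AAV::eGFP libraries 3 to 5, squares for AAV::*nsHif1a* and a line at each group's median. For 9 genes the triangles reach or pass the squares, and for *H2-Q2* all squares, at 2.62 to 8.38 CPM, lie above all control points, at 0.0659 to 0.966 CPM.

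*H2-Q2*, a Q region chain that codes for a class I protein of little known function, was the exception. It had 3, 15, 3, 1 and 1 counts in AAV::eGFP libraries 1 to 5 and 35, 114, 75, 96 and 131 counts in AAV::*nsHif1a* libraries 1 to 5, or 0.304 ± 0.377 CPM and 6.0 ± 2.19 CPM (SD, n = 5 each). The groups did not overlap, and the lowest AAV::*nsHif1a* library was above AAV::eGFP library 2, the control with the most class I. The log2FC was 4.83 ± 0.62, and the summed counts, 451 against 23, gave a ratio of 19.5 with a 95% interval of 12.8 to 31.1 that covers counting error only. It was the 1 of the 10 genes called higher with AAV::*nsHif1a* (limma, adjusted p-value under 0.05 and log2FC above 0.5), where 1.08% of all 18859 genes were called, and the 1 whose groups did not overlap, where 3.25% of all genes had no overlap with AAV::*nsHif1a* on the higher side. Within the libraries with *Xist* counts, 2 against 5, its log2FC was 3.44 and it was no longer called, and with the *Xist* class as a covariate it was 3.44 and it was not called either.

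The other 9 genes depended on which controls were used. Without AAV::eGFP library 2, 8 of the 10 genes were called, as were 313 of all 19064 genes. Against AAV::eGFP libraries 3 to 5 alone, a comparison added after the values were seen, all 10 were called, as were 371 of all 19400 genes, with log2FC from 2.08 for *H2-D1* to 5.55 for *H2-Q2*. Within the libraries with *Xist* counts the log2FC of the 9 genes lay between -1.27 for *B2m* and -0.39 for *Nlrc5*. The edgeR quasi-likelihood test, which compares mean counts over all 10 libraries, gave the 9 genes log2FC from -0.30 for *H2-Q6* to 0.64 for *Nlrc5*, with 0.03 for *H2-K1* in place of 1.63. *H2-Q4*, *H2-Q6* and *H2-Q7* were below 0 and the other 6 above. The summed heavy chains, at 640 ± 968 CPM with AAV::eGFP and 653 ± 268 CPM with AAV::*nsHif1a* (SD, n = 5 each), had a log2FC of 1.43 ± 0.77 by limma and of 0.03 by edgeR and by DESeq2. The *Xist* class and any other difference between the 2 sets of controls cannot be told apart.

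*H2-Q2* also stood apart as a share of the class I counts. It made up 0.0379%, 0.0416%, 0.182%, 0.0946% and 0.0754% of the counts of the 7 heavy chains in AAV::eGFP libraries 1 to 5, and 0.883%, 0.932%, 1.16%, 0.828% and 0.879% in AAV::*nsHif1a* libraries 1 to 5. The exact 95% intervals, which cover counting error only, began at 0.616% or more with AAV::*nsHif1a* and ended at 0.530% or less in the controls. These are the libraries on which the gene was chosen, so the separation is a description. AAV::eGFP library 2 had 36088 heavy chain counts, more than any AAV::*nsHif1a* library. Its 15 counts on *H2-Q2* were the most of any control and fewer than the 35 to 131 counts with AAV::*nsHif1a*. Among the controls *H2-Q2* was thus highest in the library where its paralogs were highest, while its share there was 0.0416%. Against *H2-Q4*, *H2-Q2* had 0.407 to 2.83 counts per 100 with AAV::eGFP and 7.91 to 14 per 100 with AAV::*nsHif1a*.

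**Figure D2:**
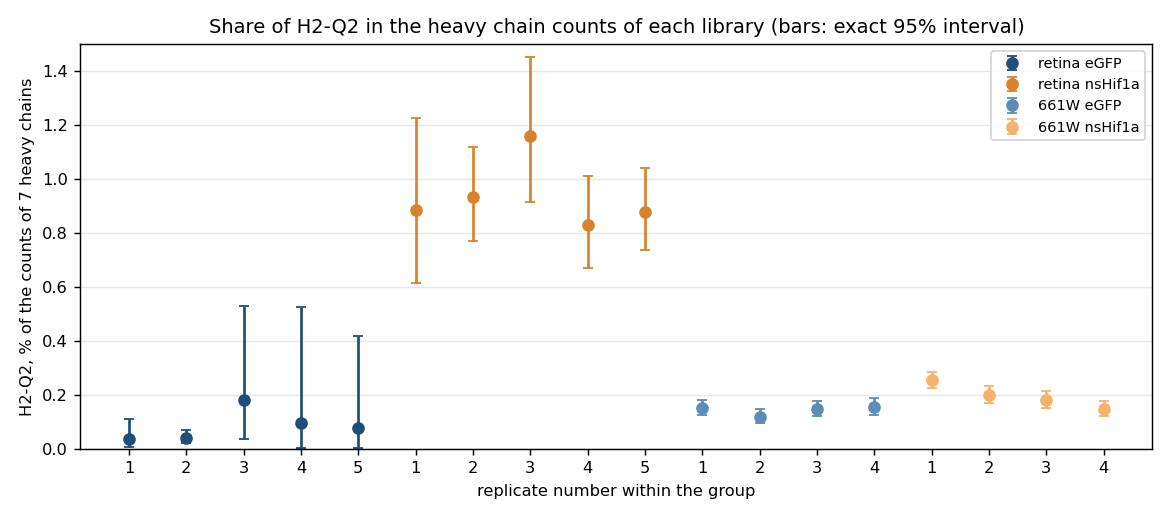
Share of *H2-Q2* in the counts of the 7 heavy chains (%), 1 point per library with its exact 95% interval, by group and replicate number. The 5 retinal AAV::*nsHif1a* libraries lie at 0.828% to 1.16%, above all other libraries, which lie at 0.255% or less.

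The shares of *H2-D1* and *H2-Q6* in AAV::eGFP libraries 1 and 2 lay nearer to those with AAV::*nsHif1a* than to those of the other controls. *H2-D1* made up 35.4% and 29.8% of the heavy chain counts in AAV::eGFP libraries 1 and 2, 56.3%, 62% and 56.3% in libraries 3 to 5, and 33.1% to 39.6% with AAV::*nsHif1a*. *H2-Q6* made up 8.28% and 13.9% in AAV::eGFP libraries 1 and 2, 2.04% to 3.69% in libraries 3 to 5 and 7.47% to 10.7% with AAV::*nsHif1a*. The share of *H2-D1* was thus higher in the 3 control libraries with little class I than in any other retinal library. The share of *H2-T23* did not follow this order, with 4.52% and 2.21% in AAV::eGFP libraries 1 and 2, 1.73% to 2.65% in libraries 3 to 5 and 2.08% to 4.65% with AAV::*nsHif1a*.

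**Figure D3:**
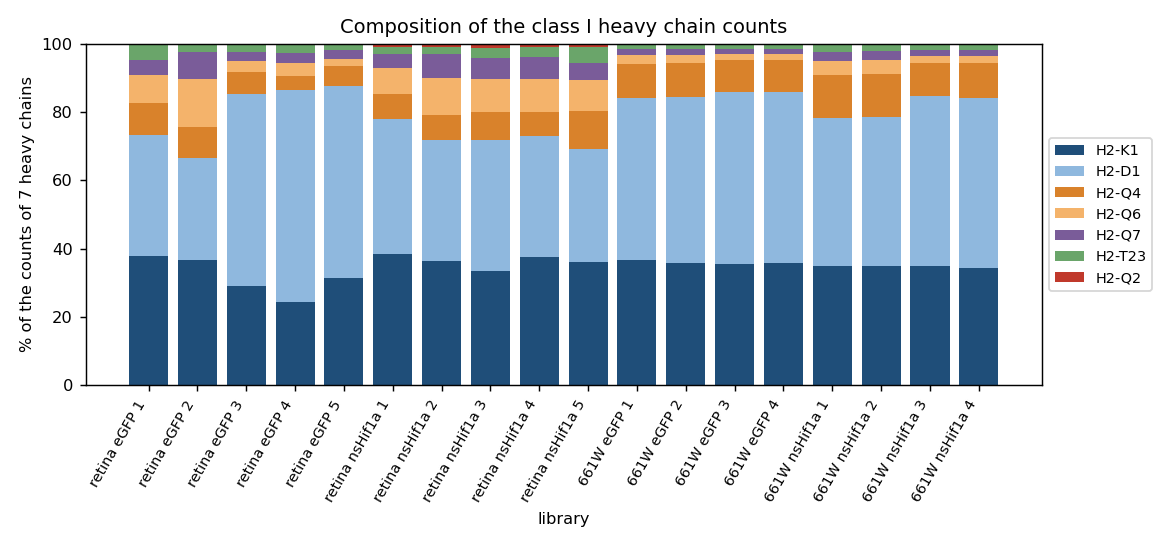
Composition of the heavy chain counts (% of the 7 chains, stacked bars from 0 to 100) in each of the 18 libraries. *H2-D1* takes 56.3% to 62% in retinal AAV::eGFP libraries 3 to 5 and 29.8% to 39.6% in the other retinal libraries, and the strip of *H2-Q2* is visible with retinal AAV::*nsHif1a*.

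Of the 30 other class I genes of the H2 region, 11 were tested in the retina. By limma 4 were called higher, against 1.08% of all genes, with a median log2FC of 1.41 against -0.0021 for all genes. EdgeR called 2 and DESeq2 3 (7 by limma, 5 by edgeR and 5 by DESeq2 at an unadjusted p-value under 0.05). *H2-T13*, a T region gene, was at 1.22, 1.42, 1.05, 0.922 and 0.751 CPM with AAV::eGFP and at 2.24, 6.35, 7.01, 5.37 and 7.74 CPM with AAV::*nsHif1a* (log2FC 2.43 ± 0.40). Its groups did not overlap, and AAV::eGFP library 2 was not set apart from the other controls. *H2-T5* was at 0.198 to 2.25 CPM and 1.80 to 2.76 CPM (log2FC 2.03 ± 0.39), and the pseudogene *H2-T11-ps* at 0.0659 to 1.61 CPM and 0.748 to 2.56 CPM (log2FC 2.20 ± 0.59). The annotated lncRNA copy of *H2-K2* shares 27.2% of its words with other annotated genes, and 21.5% with the other entry named *H2-K2*. It was at 3.35 to 4.94 CPM with AAV::eGFP and at 5.61 to 8.49 CPM with AAV::*nsHif1a* (log2FC 0.67 ± 0.15). Its groups did not overlap either. *H2-Q1*, next to *H2-Q2* and the gene that shares most words with it, had 53, 220, 17, 14 and 17 counts with AAV::eGFP and 56, 150, 71, 108 and 111 counts with AAV::*nsHif1a*, so it followed the paralogs and not *H2-Q2*. The pseudogene *H2-Q3*, on the other side of *H2-Q2*, had 0 counts in all 10 retinal libraries.

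The genes whose log2 CPM was most like that of *H2-Q2* over the 10 retinal libraries were *Pbxip1* (Pearson r = 0.976), *Ier3* (0.975), *Edn2* (0.973), which codes for endothelin 2, *Egln3* (0.971), which codes for a prolyl hydroxylase that acts on HIF subunits, and *Neurl1a* (0.968). None of these is a class I gene, and the highest r of *H2-Q2* with another member was 0.766, with *Nlrc5*. The libraries share 1 tissue, and the genes were picked by this measure.

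Other genes of the pathway were read from a list of 12 loading and processing genes. In the retina 11 of the 12 had a log2FC above 0, with a median of 0.22 against -0.0021 for all genes, and 0 were called by limma, edgeR or DESeq2, with 0 at an unadjusted p-value under 0.05 in each. *Psmb8*, an immunoproteasome subunit, was at 14.3, 46.3, 3.27, 1.58 and 2.85 CPM with AAV::eGFP and at 4.79 to 37.4 CPM with AAV::*nsHif1a*, the pattern of *Tap1*. The chaperones *Calr*, *Canx* and *Pdia3*, which serve many glycoproteins, lay between 190 and 492 CPM with AAV::eGFP and between 213 and 502 CPM with AAV::*nsHif1a* and did not follow it. Of 19 regulators of class I transcription, 0 were called by limma, edgeR or DESeq2 (3, 2 and 2 at an unadjusted p-value under 0.05). *Irf7*, an interferon-inducible factor, was at 80.1 and 54 CPM in AAV::eGFP libraries 1 and 2, at 10.1 to 11.1 CPM in libraries 3 to 5 and at 13 to 30.3 CPM with AAV::*nsHif1a*. Of 8 class I-like genes outside the H2 names, 5 were tested and 0 were called by limma, edgeR or DESeq2, with 0 at an unadjusted p-value under 0.05.

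Markers of leukocytes moved with the class I genes in part. The sum of 10 MHC class II genes was 29.4, 382, 24.8, 12.1 and 31.5 CPM with AAV::eGFP and 78.3, 205, 124, 231 and 237 CPM with AAV::*nsHif1a*. AAV::eGFP library 1, with 848 CPM over the 10 class I members, thus had as little class II as libraries 3 to 5, which had 87.2 to 134 CPM of class I. *H2-Ab1*, a class II beta chain, was the 1 of 7 class II genes tested that was called by limma, against 1.08% of all genes, and neither edgeR nor DESeq2 called it (log2FC 2.45 ± 0.60). All 7 were fitted above 0 with a median log2FC of 2.20, and 7 by limma and 0 by edgeR or DESeq2 were at an unadjusted p-value under 0.05. The sum of 15 microglia and macrophage markers was 157, 293, 81.7, 63.9 and 105 CPM with AAV::eGFP and 105 to 313 CPM with AAV::*nsHif1a*, with all 15 fitted above 0 (median log2FC 1.13) and 0 called by limma, edgeR or DESeq2 (7, 2 and 1 at an unadjusted p-value under 0.05). The sum of 12 lymphocyte markers was 14.1 CPM in AAV::eGFP library 2, 1.25 to 1.80 CPM in the other controls and 2.62 to 7.85 CPM with AAV::*nsHif1a*, and *Cd3e* was at 0 in the other 4 controls. A fit with the mean of the microglia and macrophage markers as a covariate was added after the values were seen. It gave the 9 other members log2FC between -0.78 and -0.21 and *H2-Q2* a log2FC of 3.71. The genes were chosen on these same libraries, so these values are a description. The sum of 6 lens gamma crystallins was 680, 2071, 632, 2809 and 944 CPM with AAV::eGFP and 10880, 1296, 11490, 18900 and 917 CPM with AAV::*nsHif1a*, with all 6 fitted above 0 and 0 called by limma, 2 by edgeR and 5 by DESeq2 (6 by each at an unadjusted p-value under 0.05). The sum of 8 endothelial markers was 329 to 371 CPM with AAV::eGFP and 352 to 435 CPM with AAV::*nsHif1a*, with 7 of 8 fitted above 0 (median log2FC 0.27) and 0 called by limma, edgeR or DESeq2 (4, 5 and 5 at an unadjusted p-value under 0.05). Of 9 rod markers, 0 were fitted above 0 (median log2FC -0.22) and 0 were called by limma, edgeR or DESeq2 (6 by each at an unadjusted p-value under 0.05). Pigment epithelium genes summed to 44.5, 30.5, 505, 212 and 152 CPM in AAV::eGFP libraries 1 to 5. With AAV::*nsHif1a* they summed to 40.2, 26.5, 239, 506 and 104 CPM in libraries 1 to 5. Libraries 1 and 2 were thus the lowest in each group. The part of these cell types in the result was not tested.

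In 661W cells, most class I genes had higher values with *nsHif1a* in replicates 1 and 2 and values nearer to those of eGFP in replicates 3 and 4. *Nlrc5* was at 106, 99, 111 and 115 CPM with eGFP and at 190, 181, 130 and 135 CPM with *nsHif1a* (log2FC 0.56 ± 0.11). *Tap1* was at 201, 185, 206 and 200 CPM with eGFP and at 402, 372, 223 and 239 CPM with *nsHif1a* (log2FC 0.62 ± 0.16). *H2-T23* was at 64.6, 65, 58.1 and 57.8 CPM with eGFP and at 131, 121, 68.8 and 71.5 CPM with *nsHif1a* (log2FC 0.64 ± 0.19). For these 3 genes every *nsHif1a* library was above every eGFP library, against 7.49% of all 15962 genes, and replicates 1 and 2 lay well above 3 and 4.

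The Q region chains overlapped between the groups. *H2-Q6* was at 139, 122, 82 and 83.2 CPM with eGFP and at 249, 252, 96.2 and 101 CPM with *nsHif1a* (log2FC 0.65 ± 0.33). *H2-Q2* was at 7.67, 5.95, 6.69 and 6.97 CPM with eGFP and at 15.7, 12.1, 8.29 and 7.15 CPM with *nsHif1a* (log2FC 0.61 ± 0.22). *H2-Q7* had a log2FC of 0.64 ± 0.21 and *H2-Q4* of 0.41 ± 0.16. The share of *H2-Q2* in the heavy chain counts was 0.12% to 0.154% with eGFP and 0.148% to 0.255% with *nsHif1a*.

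The classical chains and the light chain, which were the most abundant, moved least. *H2-K1* was at 1617 to 1846 CPM with eGFP and at 2149, 2099, 1596 and 1666 CPM with *nsHif1a* (log2FC 0.14 ± 0.10), and *H2-D1* was at 2273 to 2410 CPM and 2276 to 2666 CPM (log2FC 0.10 ± 0.05). *B2m* was at 1770 to 1871 CPM and 1745 to 1935 CPM (log2FC 0.02 ± 0.04), and the groups overlapped. The summed heavy chains had a log2FC of 0.18 ± 0.09 in the cells, and edgeR and DESeq2 both gave 0.18.

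**Figure D4:**
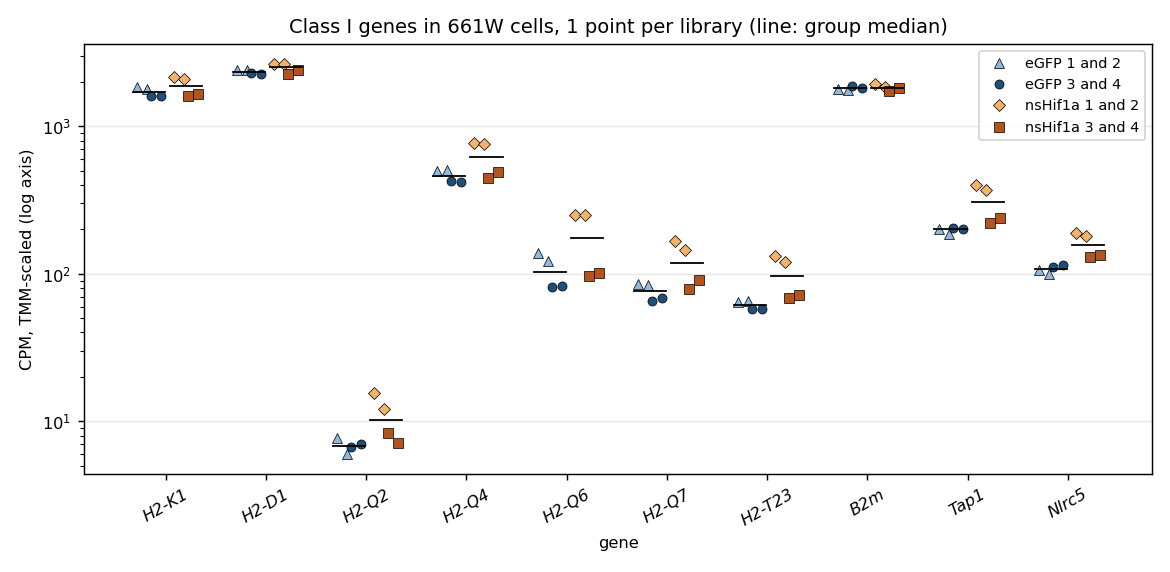
CPM (log axis) of the 10 genes in the 8 libraries of 661W cells, 1 point per library, with the replicates 1 and 2 and the replicates 3 and 4 of each group marked apart and a line at each group's median. The *nsHif1a* replicates 1 and 2 are the highest points for each of the 10 genes except *B2m*, for which 1 of the 2 is, at 1935 CPM.

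*Nlrc5* was the 1 of the 10 genes called higher in the cells, where 1.21% of all genes were called. Deviations from the group means correlated between same-numbered libraries, but only replicates 3 and 4 correlated best with their own number. Pairing of single libraries by number is therefore uncertain. With the replicate block 0 of the 10 members were called by limma, the log2FC of *Nlrc5* being 0.51. In replicates 1 and 2 alone 7 of the 10 members were called, as were 1336 of all 16122 genes, with log2FC of 1.03 for *H2-Q2*, 1.0 for *Tap1*, 0.96 for *H2-T23* and 0.86 for *Nlrc5*. In replicates 3 and 4 alone the members' log2FC lay between -0.05 and 0.34, below the fold threshold of 0.5, and 0 were called. Over all 16211 genes 186 were called higher there. *Nlrc5*, *Tap1*, *H2-T23*, *H2-Q4*, *H2-Q6* and *H2-Q7* nevertheless had limma adjusted p-values under 0.05 in that set, with log2FC from 0.16 to 0.34. With the replicate set as a covariate 6 members were called, as were 538 of all 15962 genes. *Hif1a* ran the other way, at 1219 and 1239 CPM in the *nsHif1a* replicates 1 and 2 and at 1950 and 1821 CPM in replicates 3 and 4. The labels do not say what the replicate sets share.

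The wider pathway was read from the same lists in the cells. Of the 12 loading and processing genes all had a log2FC above 0, with a median of 0.29 against -0.0013 for all genes, and 0 were called by limma, 0 by edgeR and 1 by DESeq2 (10, 7 and 9 at an unadjusted p-value under 0.05). Of all 15962 genes, limma called 193 higher and DESeq2 328, and 3304 were at an unadjusted p-value under 0.05 by limma. *Psmb9*, an immunoproteasome subunit, was at 36 to 40.5 CPM with eGFP and at 97.9, 96.5, 41.7 and 48.6 CPM with *nsHif1a* (log2FC 0.81 ± 0.25). Of 18 regulators of class I transcription tested, 16 had a log2FC above 0 and 2 were called by limma, against 1.21% of all genes, while DESeq2 called 2 and edgeR 0, with 10 at an unadjusted p-value under 0.05 by each tool. Among the genes called was *Stat2*, a signal transducer of type I interferon receptors. It was at 276, 259, 288 and 283 CPM with eGFP and at 480, 483, 327 and 342 CPM with *nsHif1a* (log2FC 0.56 ± 0.12), so replicates 1 and 2 again lay above 3 and 4. The genes most like *Nlrc5* over the 8 libraries were *Adar*, *Parp11*, *Tor3a*, *Xdh* and *Parp14*, with Pearson r from 0.996 to 0.998. The class II genes *H2-Aa* and *H2-Ab1* had 0 counts in all 8 libraries, which allows 0.168 to 0.225 CPM per library (3 counts), and *Cd3e* had 0 counts as well. Not all of the class II list was silent, since *Cd74* was at 6.42 to 19.5 CPM and *H2-DMb1* at 7.39 to 12.2 CPM in these libraries.

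**Figure D5:**
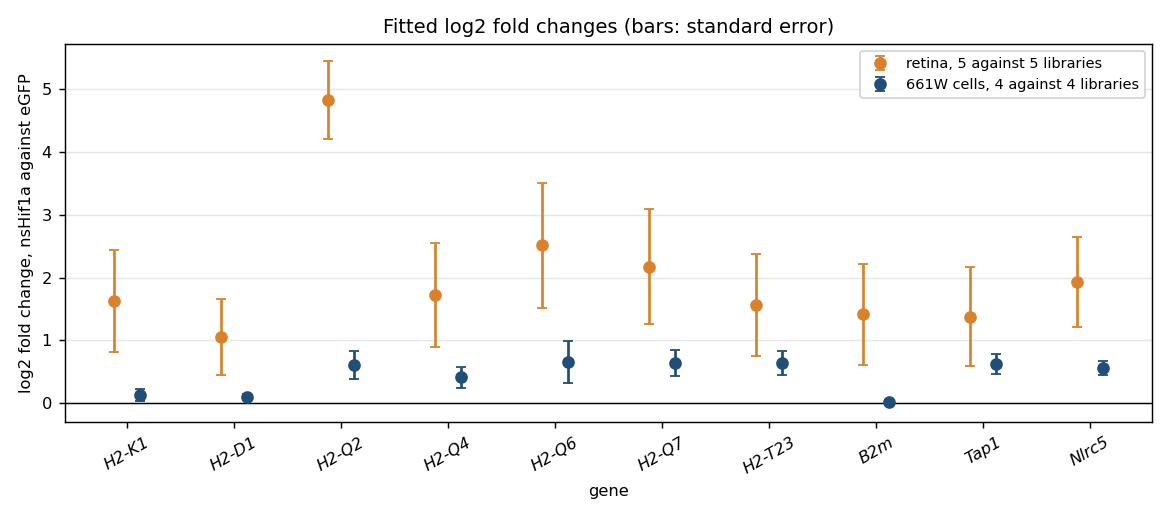
Fitted log2FC of nsHif1a against eGFP (points) with standard errors (bars) for the 10 genes in the retina and in 661W cells. *H2-Q2* stands at 4.83 in the retina and at 0.61 in the cells, and the retinal errors of the other genes, 0.60 to 1.0, are wider than those in the cells, 0.04 to 0.33.

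The difference between the effect in the retina and the effect in the cells was 4.32 ± 0.62 for *H2-Q2* on the log2 scale, and *H2-Q2* was the 1 of the 10 members for which it was called, where 1.24% of all 20999 genes were called in either direction. For the other 9 it lay between 0.88 ± 0.76 for *Tap1* and 2.09 ± 1.06 for *H2-Q6*, while by edgeR it was below 0 for 7 of these 9. Both contrasts took part in the choice of the genes, so these values are a description.

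Class I was lower in control retina than in control cells. This contrast uses the same control libraries as those behind the choice, and genes picked for a high ratio to AAV::eGFP tend to be low in these controls, so the members' values are given without p-values. All 10 members were called higher in 661W cells with eGFP than in retinas with AAV::eGFP (limma, n = 5 retinal and 4 cell libraries), where 35.1% of all 20999 genes were higher in the cells. The log2FC of retina against cells was -5.11 ± 0.57 for *B2m*, -4.55 ± 0.59 for *H2-K1* and -4.40 ± 0.43 for *H2-D1*. *H2-Q2* had 3, 15, 3, 1 and 1 counts in the control retinas and 92 to 128 in the control cells, and its fitted value of -4.95 rests on counts near the limit of detection. The log2FC was nearest to 0 for *H2-Q7*, at -3.18 ± 0.77, and for *H2-Q6*, at -3.32 ± 0.88. By edgeR, *H2-Q6* and *H2-Q7* had log2FC of -0.37 and -0.66 and were not called. AAV::eGFP library 2 had 324 CPM of *H2-Q6*, above the 82 to 139 CPM of the eGFP cells. All 12 loading and processing genes were also higher in the cells, among them *Psmb8* (log2FC -5.47 ± 0.56, limma adjusted p = 2.06e-08). Tissue, time and transfer of DNA differ between the 2 experiments, and the inbred background may differ too. These cannot be told apart here.

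Per kilobase of annotated exon, a scale on which genes can be compared, the order in eGFP cells was *B2m* with 824 ± 23.8 CPM per kb, *H2-D1* with 750 ± 29.5, *H2-K1* with 516 ± 39, *H2-Q4* with 126 ± 13.5, *Tap1* with 31.5 ± 1.52, *H2-Q6* with 29.8 ± 8.21, *H2-T23* with 17.1 ± 1.21, *H2-Q7* with 17 ± 2.46, *Nlrc5* with 12.1 ± 0.728 and *H2-Q2* with 2.36 ± 0.254 (SD, n = 4). *Tap1* and *H2-Q6*, and *H2-T23* and *H2-Q7*, did not differ beyond their spread. In AAV::eGFP retinas the medians ran from 19.8 CPM per kb for *H2-D1*, 12.2 for *B2m* and 10.1 for *H2-K1* down to 0.0691 for *H2-Q2*. *H2-Q2* was the lowest of the 10 genes in both control groups.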

How the data were processed

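Retinal and 661W mRNA was sequenced as described. The authors made stranded libraries, aligned reads to GRCm39 with Rsubread, counted them on the antisense strand with featureCounts (gencode M36 basic) and deposited unfiltered whole-number counts per gene. Reads shared by near-identical class I genes can be split or lost at that step.

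From these counts, low genes were removed with filterByExpr at its default minimum count of 10 (a value the study's methods do not give), libraries were scaled by TMM (edgeR 4.0.16), and voomWithQualityWeights values were fitted in limma 3.58.1 under R 4.3.3, following the functions that the study's methods name. Genes were called at a Benjamini-Hochberg adjusted p-value under 0.05 and an absolute log2FC above 0.5. CPM use the total counts scaled by TMM, and log2 CPM add a prior count of 2. The fit was tested on simulated data. Alternatives were the edgeR quasi-likelihood test, DESeq2 1.42.0, voom without weights, RLE size factors, other filters, a replicate block, the *Xist* class, replicate sets and the omission of each library. Depth was 12898220 to 17809585 counts per library, and 3 counts correspond to 0.168 to 0.229 CPM, for counting error only. The 78168 of 78239 identifiers with a name were matched to gencode M39, which also gave exon lengths and transcripts for the shared 50-base words.

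Groups and replicate numbers came from the labels, which do not say whether cell libraries are separate cultures, so p-values there measure the spread between libraries. Deviations from the group means correlated between same-numbered 661W libraries in all 4 pairs (r from 0.228 to 0.270). Only replicates 3 and 4 correlated best with their own number. The main fit of the cells did not pair the libraries, and the replicate block was an alternative. In the retina r ranged from -0.148 to 0.138 and the libraries were not taken as paired. The members and gene lists were chosen with earlier results of these data known. Genes named are the members, called or most abundant genes of the lists, the 5 genes most like *H2-Q2* and *Nlrc5*, and the neighbours of *H2-Q2*. Others were named after their values were seen. Results for some items are not reported here.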

Additional observations from a re-analysis of the deposited data

Results flagged for a closer look

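AAV::eGFP library 2 was set far above the other 4 AAV::eGFP libraries for 8 members. Its value was 851 CPM for *H2-K1*, 694 CPM for *H2-D1*, 0.966 CPM for *H2-Q2*, 215 CPM for *H2-Q4*, 324 CPM for *H2-Q6*, 188 CPM for *H2-Q7*, 87.3 CPM for *Tap1* and 54.9 CPM for *Nlrc5*, with a gap to the next library of 0.738 to 0.865 of the group's range (Dixon's criterion). The search covered 40 groups of 4 or 5 libraries, each being 1 gene in 1 group of libraries. Of these, 8 held such a library, all of them the retinal AAV::eGFP group. Chance sets about 1 in 20 single groups apart, but that rate does not apply to this count. Most members vary together over the same libraries, so the 8 are not separate events. The same library had the highest class II sum of the 10 retinal libraries, 382 CPM.

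The effect of nsHif1a on *H2-Q2* was larger in the retina than in 661W cells by 4.32 on the log2 scale in the fit over all 18 libraries.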

How the results depend on the processing

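In the retina, 1 member was called, *H2-Q2*. This number was 8 without AAV::eGFP library 2 and 1 without any other library, 10 with AAV::eGFP libraries 3 to 5 as the only controls, and 0 by limma within the libraries with *Xist* counts or with the *Xist* class as a covariate. The summed heavy chains had a log2FC of 1.43, which was 2.26 and called without AAV::eGFP library 2, 2.75 and called against AAV::eGFP libraries 3 to 5, -0.98 within the libraries with *Xist* counts, and 0.03 by edgeR and by DESeq2. Leaving out single libraries gave 0.67 to 2.26. The replicate block left 1 member called in the retina and a log2FC of 1.13 for the summed chains, although the retinal numbers did not pair the libraries.

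In 661W cells, 1 member was called by limma. The number was 0 by edgeR, with 6 at an unadjusted p-value under 0.05, and 4 by DESeq2. It was 0 by limma without quality weights, with the replicate block and in replicates 3 and 4 alone, 6 with the replicate set as a covariate and 7 in replicates 1 and 2 alone. Without single libraries it was 0 (without eGFP replicate 1 or 2, or *nsHif1a* replicate 1 or 2) to 7 (without *nsHif1a* replicate 3 or 4). The summed heavy chains ranged from 0.0062 to 0.33 without single libraries and were 0.15 with the replicate block.

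Between control retina and control cells, 10 members were called, 8 by edgeR, 8 by limma without the filter on low counts, where *H2-K1* and *H2-D1* lost their calls, and 5 by DESeq2, which gave *H2-D1* and *B2m* no adjusted p-value. For the effect in the retina minus that in the cells, 1 member was called, and 5 without AAV::eGFP library 2, while omission of any other library, the replicate block for the cells and the other alternatives left 1. The number of genes called higher over all genes was 203 in the retina and 64 within the libraries with *Xist* counts, 371 against AAV::eGFP libraries 3 to 5, and 193 in the cells against 88 with the replicate block, 328 by DESeq2, 538 with the replicate set as a covariate and 1336 in replicates 1 and 2 alone. The cause of these changes was not tested.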
